A study of Mus musculus with 4 samples.

Results

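Peaks of PLZF binding that lay in gene deserts were examined: their midpoint was more than 100 kb from every protein-coding gene of RefSeq on mm10 and more than 1 kb from any boundary of a long noncoding RNA (lncRNA) gene, on nuclear chromosomes without Y. Of the 9444 peaks in both deposited lists, 598 met this rule, and they fell at 437 distinct sites. The library labelled Tg thy gave 288 of them, out of 5198 peaks. The library labelled NKT gave 310, out of 4246 peaks. The rule used only position, so it did not select on the peak scores, the widths or the overlap between lists. A peak is called shared where it overlaps a peak of the opposite list by at least 1 bp, which held for 45.7% of all nuclear PLZF-transgenic peaks (those labelled Tg thy) and 60.7% of all nuclear NKT peaks.

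Both libraries were made from thymocytes of mice on a C57BL/6 background that carried a PLZF transgene and a BirA transgene, BirA being a bacterial biotin ligase, and PLZF with its DNA was captured on streptavidin beads. The NKT library came from mice that carried a Valpha14 transgene as well, the rearranged receptor chain shared by invariant natural killer T cells. The library without it is called PLZF-transgenic below. The study looked for the sites PLZF binds in each of these cell populations. Each group had 1 streptavidin library, so no difference between libraries could be tested, and the 95% intervals given are exact Clopper-Pearson intervals that cover counting error only. The 2 input libraries were not analysed here, and no sample served as a streptavidin control lacking tagged PLZF. The sources used here give neither the promoter of each transgene, nor the number of mice pooled, nor the way NKT cells were obtained.

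PLZF, encoded by Zbtb16, is a BTB zinc finger transcription factor that directs innate-like T cells, natural killer T cells among them, to their effector programme. A gene desert is a long stretch of a chromosome without protein-coding genes. Deserts beside regulators of development often hold enhancers that act on the flanking gene over a great distance, and distal elements downstream of Gata3 and Bcl11b are known to serve those genes in developing T cells. Which gene a distal site acts on cannot be read from its position, so genes are named below as neighbours and not as targets.

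Sequence could be read for members that overlap a RefSeq promoter window, the 250 bases before to 50 bases after an annotated start. Only 2 of the 598 members did, and none lay on a miRNA. Both were PLZF-transgenic peaks at an annotated start inside a lncRNA gene, more than 1 kb from its boundaries. Their sequences are shown because they are the only members of which a stretch of sequence could be read. At Gm38542 the window covered 78.8% of the peak (score 88.5), at chr3:78919584-78919869 of GRCm38.p6 (mm10), minus strand. At Gm33323 it covered 49.2% of the peak (score 109), at chr7:129785056-129785276, plus strand. Both are written 5′ to 3′, with a match to a searched motif in capitals.
Gm38542: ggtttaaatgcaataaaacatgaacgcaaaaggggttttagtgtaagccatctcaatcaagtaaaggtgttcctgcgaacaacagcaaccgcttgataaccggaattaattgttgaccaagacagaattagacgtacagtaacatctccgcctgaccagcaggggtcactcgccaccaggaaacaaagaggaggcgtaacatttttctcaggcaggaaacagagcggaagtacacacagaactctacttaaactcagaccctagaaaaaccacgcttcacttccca
Gm33323: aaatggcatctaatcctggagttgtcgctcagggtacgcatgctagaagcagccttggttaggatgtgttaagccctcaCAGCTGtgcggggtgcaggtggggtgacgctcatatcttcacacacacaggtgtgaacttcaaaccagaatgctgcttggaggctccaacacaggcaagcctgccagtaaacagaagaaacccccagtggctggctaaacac

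Both strands were searched for the ETS family word ACTTCCT, the RUNX word TGTGGT, the E box CAGCTG, the zinc finger word AGATAA that Gata3 and its relatives bind, the word CTTTGAT of the TCF family, and a core motif of CTCF. The Gm33323 stretch held 1 CAGCTG, and 11.4% of 32851 RefSeq promoter windows trimmed to the same 221 bases held that word. It overlapped no other match. None of the 6 motifs had an exact match in the 286 bases at Gm38542, and near matches were not searched for. Of windows trimmed to that length, 2.33% (CTCF) to 16.0% (RUNX) held a given motif. The GC content was 44.8% at Gm38542 and 52.9% at Gm33323. Neither peak overlapped an NKT peak.

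Desert peaks were sparse for the space they occupied. The territory that meets the rule spans 740 Mb, or 28.3% of the span from the first to the last annotated gene of each chromosome used. Members, counted over whole chromosomes, were 5.55% of the nuclear PLZF-transgenic peaks (interval 4.94 to 6.21) and 7.31% of the NKT peaks (6.55 to 8.14). This is 0.389 PLZF-transgenic peaks per Mb, against 2.62 in the rest of that span, a density 6.72 times lower. For NKT peaks the densities were 0.419 and 2.10 per Mb, which is 5.01 times lower. Chromosomes 3, 9 and 13 each held 30 PLZF-transgenic members, of 264, 318 and 250 peaks. They held 29, 29 and 22 NKT members, of 205, 242 and 196 peaks, and chromosome 16 held 25 of 166. Chromosome 11 had the most PLZF-transgenic peaks of any chromosome, 497, and 10 of them were in deserts. On the X chromosome, 0 of 23 PLZF-transgenic and 0 of 28 NKT peaks were members, which allows shares of up to 13.04% and 10.71% when a count of 0 is taken to stand for up to 3.

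Within the deserts, peaks were denser in the shorter gaps. Between neighbouring protein-coding genes there were 1537 gaps over 200 kb, the least that can hold a member. Counting only the inner part of each gap, more than 100 kb from both ends, gaps of 200 to 500 kb held 1.14 PLZF-transgenic and 1.04 NKT members per Mb. Gaps of 500 to 1000 kb held 0.593 and 0.587 per Mb, and gaps over 1000 kb held 0.147 and 0.187 per Mb. The 15 NKT members between a chromosome end and its first gene are outside these counts. The median distance to the nearest protein-coding gene was 179 kb for PLZF-transgenic and 184 kb for NKT members.

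The score, the fifth column of the authors' deposited peak lists, carries no stated definition, is read here as higher for stronger peaks, and can be compared only within a list. PLZF-transgenic members had a median score of 122 (quartiles 75.9 and 230), against 110 for the other nuclear peaks of the list. NKT members had a median of 69.2 (quartiles 55.3 and 114), against 74.2 for the other peaks. When each whole list was divided by score into 4 classes of equal size, 30.6% of PLZF-transgenic members (25.3 to 36.2) fell in the top class and 20.8% in the bottom one. Of the NKT members, 21.9% (17.5 to 27.0) fell in the top class and 28.1% in the bottom one. Median widths were 413 bp for PLZF-transgenic members and 222 bp for NKT members, and 385 and 224 bp for the other peaks. These differences in median were small beside the distance between the quartiles of each list.

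The strongest desert sites of both lists lay in the 797 kb between Prl5a1, a prolactin family gene, and Sox4, an HMG box transcription factor of lymphocyte development. A PLZF-transgenic peak at chr13:28417199-28418852, inside the lncRNA gene Gm40841, 266 kb from Prl5a1 and 531 kb from Sox4, scored 2605. The NKT peak it overlapped scored 2031. At chr13:28512049-28513583, inside the lncRNA gene 2610307P16Rik, the scores were 1791 and 1389. These were the 2 highest PLZF-transgenic members, and the highest and the third highest NKT members. Another site in 2610307P16Rik, chr13:28551303-28552002, scored 677 and 199. The desert held 9 PLZF-transgenic members in all, of which 4 overlapped an NKT peak, and the 5 that did not scored 54.8 to 136. Of its 5 NKT members, 4 overlapped a PLZF-transgenic peak.

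Other strong sites were scattered over many chromosomes. In the 259 kb between Ets2, an ETS family factor, and Psmg1, a proteasome assembly chaperone, the peak at chr16:95869231-95870975 scored 1349. It lay inside the lncRNA gene 1600002D24Rik, 110 kb from Psmg1 and 149 kb from Ets2. It was covered by separate NKT peaks that scored 155 and 347. Between Npy, which encodes neuropeptide Y, and Mpp6, the peak at chr6:49973390-49974428 scored 856 and its partner 413. Between Sall3, a zinc finger factor of development, and Galr1, the peak at chr18:81399790-81400868 scored 860.0 and its partner 445.

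A further 4 of the 10 highest PLZF-transgenic members also overlapped an NKT peak. Scores were 781 and 457 at chr9:115640632-115641368 between Stt3b, an oligosaccharyltransferase subunit, and Gadl1. They were 779 and 185 at chr12:16049366-16050278 between Trib2, a pseudokinase, and Lpin1, and 748 and 342 at chr3:38279941-38281113 beside Ankrd50. At chr10:26520802-26521523, beside L3mbtl3, they were 743 and 429.8. Among the 10 highest NKT members, chr18:55466609-55467292 beside Zfp608 scored 564 (529 in the PLZF-transgenic list) and chr3:130947090-130947784 beside Lef1 scored 429.9 (715). All 10 highest PLZF-transgenic members were shared, and 8 of the 10 highest NKT members.

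**Figure D1:**
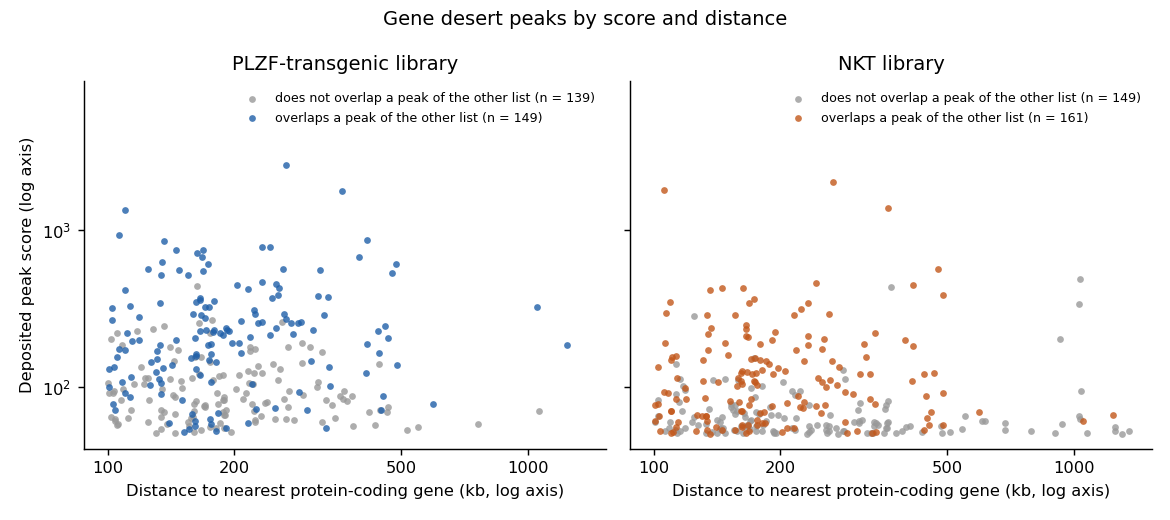
Deposited peak score (log axis) against distance to the nearest protein-coding gene (kb, log axis) for each gene desert peak of the PLZF-transgenic library (288 peaks, left) and the NKT library (310 peaks, right). Coloured points overlap a peak of the other list and grey points do not; the highest coloured points reach 2605 and 2031, and most NKT points beyond 500 kb are grey and near the lowest scores.

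Members were spread unevenly over the deserts, which differ in length, and clustering was not tested. Counts here are of peaks, so a site with several peaks counted more than once. At least 1 member was found in 218 deserts, 123 with PLZF-transgenic and 178 with NKT members, and 83 had members of both lists. In the PLZF-transgenic list, 36 deserts with at least 3 members held 173 of the 288, while 59 members were alone in their desert. In the NKT list, 31 such deserts held 131 of the 310, while 115 were alone. Deserts with NKT members only numbered 95. They include stretches from a chromosome start to its first gene, which have no gap length. The others had a median gap of 859 kb. Deserts with members of both lists had a median gap of 574 kb, and the 40 with PLZF-transgenic members only one of 659 kb.

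The desert with the most PLZF-transgenic members ran for 769 kb from Satb1, a genome organiser required in developing T cells, to Kcnh8, a potassium channel gene. It held 11 PLZF-transgenic and 6 NKT members at 12 sites. Its 5 shared sites scored 374, 559, 92.4, 236 and 519.9 as PLZF-transgenic peaks, in order along the chromosome, and 77.9, 154, 59.7, 107 and 285 as NKT peaks. The strongest PLZF-transgenic site was at chr17:52282067-52282774, 449 kb from Satb1. The strongest NKT site was at chr17:52468383-52468916, 635 kb from Satb1. Both sites were nearer to Kcnh8 than to Satb1. All 6 unshared PLZF-transgenic members here lay among the shared sites and scored 56.1 to 168. With the gap on its other side, Satb1 was flanked by 13 PLZF-transgenic and 9 NKT members.

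Beside Ptprc, which encodes the phosphatase CD45 of all lymphocytes, the desert towards Nr5a2 held 8 PLZF-transgenic and 7 NKT members at 8 sites. They lay 161 to 288 kb from Ptprc, with a highest score of 426 (NKT 126). Between Uaca and Tle3, a Groucho family corepressor, there were 8 and 7 members, with highest scores of 221 and 159. Beside Foxo1, a forkhead factor of T cell homing and survival, 6 of 7 PLZF-transgenic members and all 6 NKT members were shared. They ran from 109 to 528 kb from the gene, the farthest being nearer to Cog6, with highest scores of 308 and 126. Between Stt3b and Gadl1, 7 and 6 members reached 781 and 457, and the PLZF-transgenic peak at chr9:115623855-115624536 there scored 258 with no NKT peak. The maps of these deserts show each member by its distance from the left gene.

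**Figure D2:**
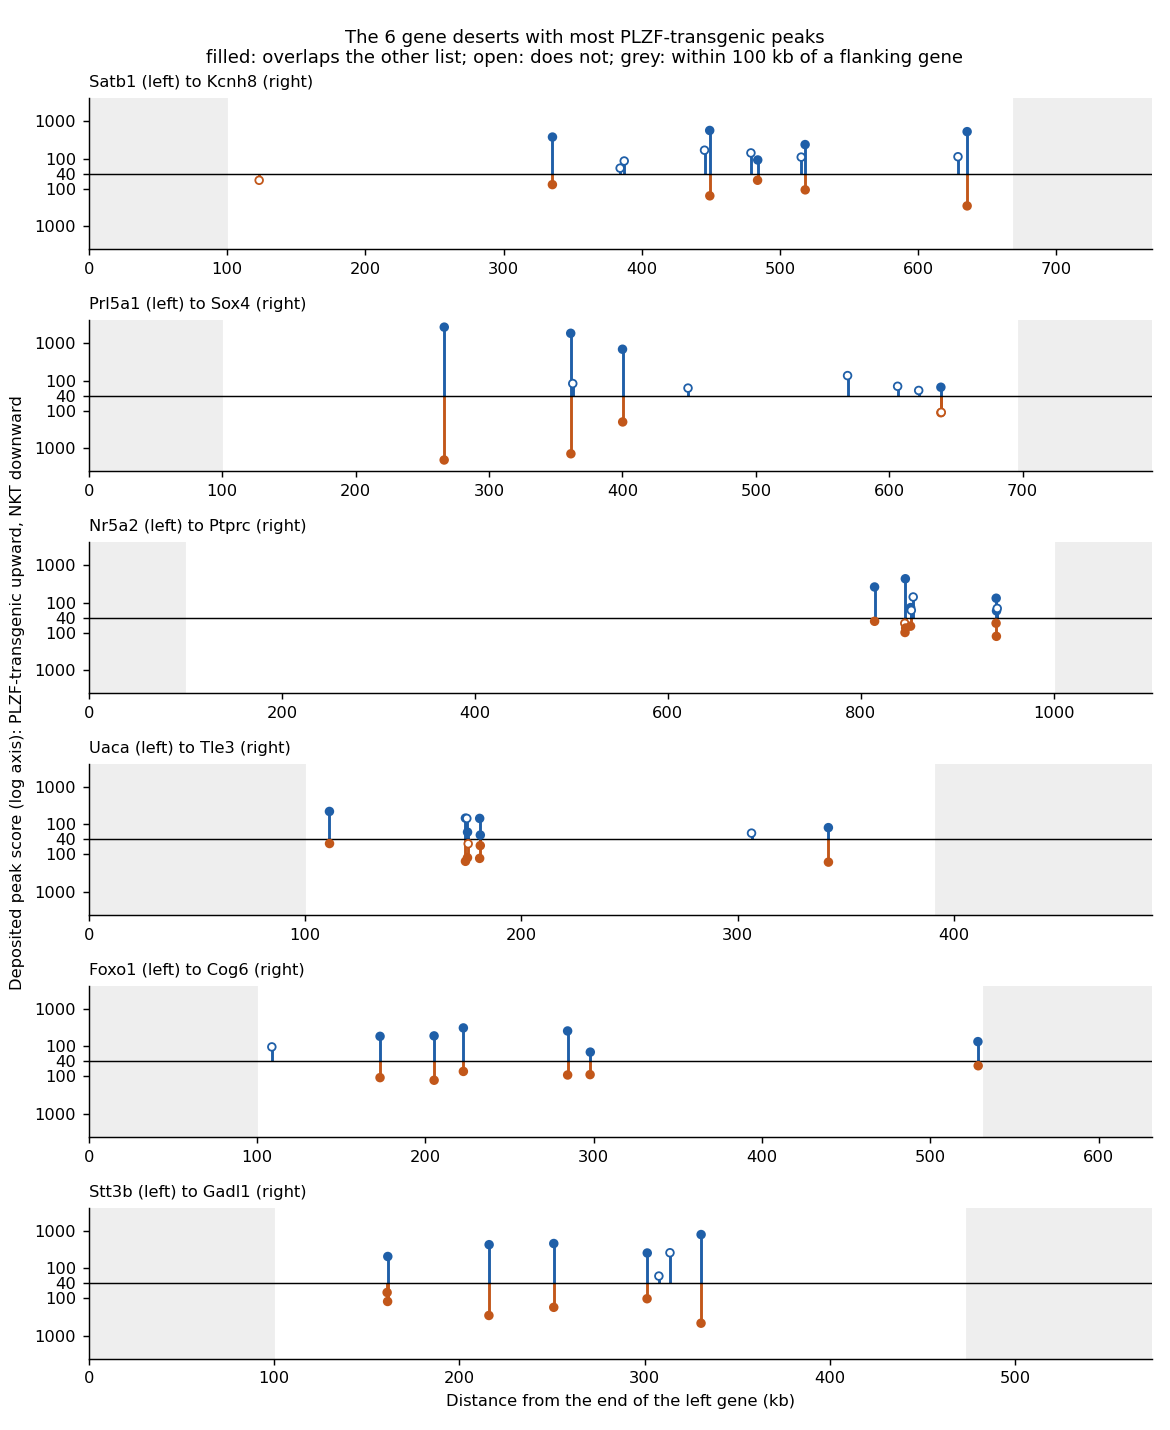
Maps of the 6 deserts with most PLZF-transgenic members, with distance from the left gene on the horizontal axis (kb) and deposited peak score on a log axis, PLZF-transgenic peaks upward and NKT peaks downward. Filled points overlap a peak of the other list, open points do not, and grey bands are within 100 kb of a flanking gene; in the Satb1 desert 5 sites appear in both lists and 6 upward points are open.

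Transcription factors of the T lineage stood at the edge of a desert with members more often than protein-coding genes as a whole. The list of 58 such factors was chosen with earlier results of these data known. The excess is therefore no independent result, and it was not tested. Of these factors, 30 stood at the end of a gap over 200 kb. For 15 of the 30 (50%, 31.3 to 68.7) the gap held a PLZF-transgenic member, against 9.07% of all 2602 protein-coding genes at the end of such a gap. For 15 of the 30 it held an NKT member, against 12.8% of all such genes, and 14 of the genes were the same in both lists. Counting only the gene nearest to a member, 12 of the 30 remained for the PLZF-transgenic list and 13 for the NKT list. Over all 2602 genes, 148 and 203 remained. Their gaps, 39 in all, had a median length of 562 kb, against 421 kb for all gaps. Per Mb of inner gap they held 3.04 PLZF-transgenic and 2.34 NKT members, against 0.390 and 0.400 in all gaps. These gaps held 70 of the 288 PLZF-transgenic members (24.3%) and 54 of the 310 NKT members (17.4%).

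Factors that set up T cell identity were among these genes, with neighbours of varied score. Gata3, the zinc finger factor of T cell commitment, was flanked by 6 PLZF-transgenic members that scored 88.0 to 564. Its 3 shared sites, at chr2:9519875-9520312, chr2:9593847-9594528 and chr2:9595160-9595966, scored 134, 289 and 564, and in the NKT list 219, 111 and 293. At the first of these the NKT score was the second highest of its 3, whereas the PLZF-transgenic score was the lowest of the 3. Lef1, a high mobility group factor of the Wnt pathway, had 3 shared sites that scored 232, 612 and 715 (NKT 120, 364 and 429.9), the strongest 163 kb from the gene. Bcl11b, a zinc finger factor needed for T cell commitment, had 5 members in each list, with 3 shared and highest scores of 234 and 148. Of these 10 peaks, 7 lay 127 to 131 kb from the gene. Tox, an HMG box factor of CD4 and NKT cell development, had 2 shared sites that scored 164 and 204 (NKT 78.3 and 122).

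Members also flanked ETS, RUNX and other factors. Ets1, an ETS factor that NKT cells require, had 4 PLZF-transgenic members. The strongest, chr9:32925986-32926910, 169 kb from the gene, scored 545, and the NKT peak there scored 76.3. Runx1, a core binding factor of thymocyte development, had a shared site at chr16:93152802-93153401 that scored 289, where NKT peaks scored 82.9 and 120, and an unshared PLZF-transgenic peak of 200.1. Bcl6, a BTB zinc finger repressor of the same family as PLZF, had 3 shared sites towards Lpp that scored 367, 324 and 343 (NKT 212, 151 and 65.2). Myc had 3 shared sites, 2 of them in the lncRNA gene Pvt1 (324 and 232, NKT 108 and 67.3). The other, in Gm20740 (232, NKT 119.6), lay 1477 kb from Myc and nearer to Gsdmc. Maf, a bZIP factor of effector T cells, had 1 PLZF-transgenic member of 161 and an overlapping NKT peak of 69.9. Id2, an inhibitor of E proteins, had 3 PLZF-transgenic members, all unshared, that scored 76.2 to 77.4.

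Genes of T cell signalling, survival and migration also flanked members. Of 21 such genes at the end of a gap over 200 kb, out of 81 listed, 7 had a PLZF-transgenic member (33.3%, 14.6 to 57.0) and 6 an NKT member (28.6%, 11.3 to 52.2). Over all genes at such gaps the shares were 9.07% and 12.8%, and the NKT interval includes the latter. These intervals overlap those of the transcription factors, and the difference was not tested. This list, too, was chosen with earlier results of these data known. Per Mb of inner gap, they had 2.47 PLZF-transgenic and 1.98 NKT members. Tnfaip3, which encodes the NF-kappaB inhibitor A20, had 5 PLZF-transgenic members, all inside the lncRNA gene Gm20139. The strongest, chr10:19187988-19189181, scored 671, and NKT peaks under it scored 57.0 and 208. Dusp4 and Dusp10 encode phosphatases that dampen MAP kinase signalling. Dusp4 had 5 members in each list, with highest scores of 519 and 285 at chr8:34651503-34652334. Dusp10 had 2 and 1, all nearer to Hlx, with highest scores of 377 and 187. Bcl2l11, which encodes the death inducer BIM, had a site inside the lncRNA gene Morrbid, chr2:128412307-128412849, that scored 354 and 187. That site was nearer to Spdye4c. The cytokine gene Ifng and the ubiquitin ligase gene Cblb each had 1 unshared PLZF-transgenic member (118 and 69.8), and the stem cell receptor gene Kit 1 unshared NKT member (72.4).

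Genes of other lineages were counted in the same way. Of 97 neuronal adhesion and channel genes at the end of a gap over 200 kb, 3 (3.09%, 0.642 to 8.77) had a PLZF-transgenic member and 23 (23.7%, 15.7 to 33.4) an NKT member. The share over all genes at such gaps, 9.07% for PLZF-transgenic and 12.8% for NKT members, was above the PLZF-transgenic interval of this list and below its NKT interval. The intervals treat genes as independent, but a peak counts for both genes at the ends of its gap. Cdh6 and Cdh9 counted through the same NKT peak, as did Slitrk1 and Slitrk6. Without places presumed rich in repeats (described below), 22 of the 97 genes had an NKT member. The gaps of these genes were long, with a median of 1062 kb. Per Mb of inner gap they held 0.0223 PLZF-transgenic and 0.134 NKT members, both under the 0.390 and 0.400 of all gaps. The 24 NKT members there included 22 unshared ones, with a median score of 55.2 for all 24. They lay, for example, beside the protocadherin gene Pcdh9 (59.9), the cadherin gene Cdh11 (54.8) and Slitrk5 (56.4). With the higher-scoring 50% of each list only, 1 and 3 of the 97 genes had a member, and with shared members only, 1 and 1.

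Developmental transcription factors of other tissues had members in 4 of 80 cases for the PLZF-transgenic list (5%, 1.38 to 12.3) and 13 of 80 for the NKT list (16.3%, 8.95 to 26.2). Both intervals include the shares over all genes at such gaps, 9.07% and 12.8%. Irx5 and Irx6 counted through the same NKT peak. The gaps held 0.185 and 0.288 members per Mb. Sall3 led them with its scores of 860.0 and 445, and Sox2 had 1 shared site of 71.3 and 62.9. The remaining 11 genes with an NKT member had unshared members only, which scored 50.2 to 282. The highest of these was beside Pou4f1, a POU factor of sensory neurons. In the same count by shared members only, 13 of the 30 T lineage factors had a PLZF-transgenic and 13 an NKT member.

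**Figure D3:**
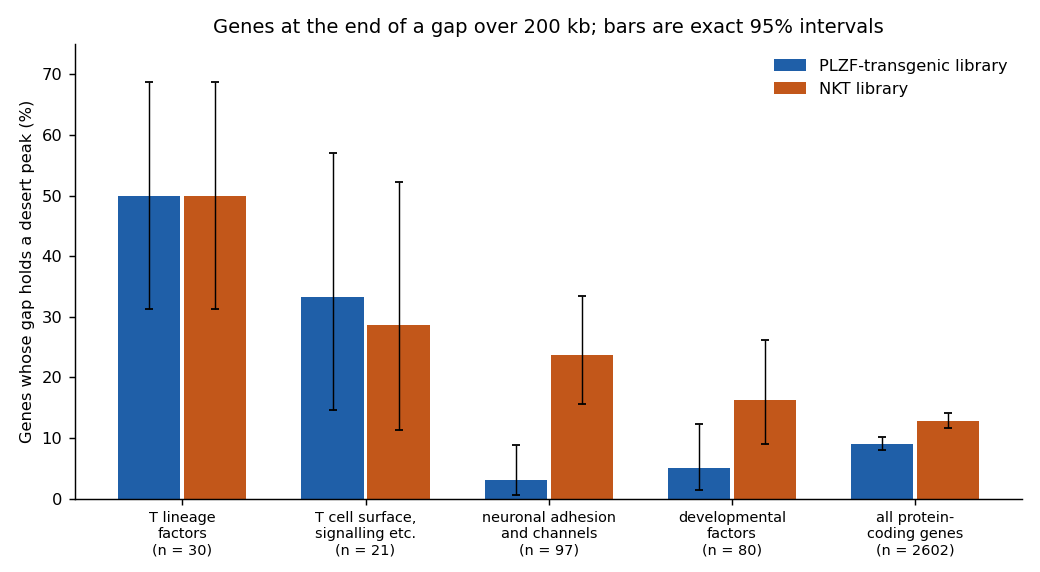
Percent of the protein-coding genes at the end of a gap over 200 kb whose gap held at least 1 gene desert peak, for 4 gene lists and all such genes, in the PLZF-transgenic (blue) and NKT (orange) lists; vertical lines are exact 95% intervals. The T lineage factors stand at 50% in both lists, and the neuronal genes at 3.09% and 23.7%. The gene lists were chosen with earlier results of these data known.

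The 598 members overlapped between the lists to a similar extent from either side. By an overlap of at least 1 bp, 149 of 288 PLZF-transgenic members (51.7%, 45.8 to 57.6) met an NKT peak, against 45.7% of all nuclear PLZF-transgenic peaks. Of the NKT members, 161 of 310 (51.9%, 46.2 to 57.6) met a PLZF-transgenic peak, against 60.7% of all nuclear NKT peaks. Among intergenic peaks 10 to 100 kb from a gene the shares were 46.5% (43.2 to 49.8) and 62.8% (59.2 to 66.4). Because the rule uses position only, a peak that overlaps a member nearly always meets it too, here for 147 of the 149 and 160 of the 161. In 139 of the 149 the PLZF-transgenic peak was the wider of the pair, and 14 spanned at least 2 NKT peaks. Across the 149 shared PLZF-transgenic members, the score and that of the highest NKT peak beneath had a Spearman rho of 0.60, which describes pairs of peaks that come from the same pair of libraries.

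Sharing rose with score. From the bottom to the top score class of the list, 23.3%, 26.8%, 53.6% and 89.8% of PLZF-transgenic members were shared, against 15.6%, 31.3%, 50.7% and 84.5% of the other peaks. NKT members were shared in 24.1%, 38.8%, 65.3% and 88.2% of cases, below the 31.9%, 43.3%, 74.3% and 95.7% of the other peaks in each class. The intervals of NKT members and other peaks overlapped in all 4 classes. In the top class that of the 68 NKT members ran from 78.1 to 94.8 and that of the others from 94.2 to 96.8. Shared members had median scores of 215 (PLZF-transgenic) and 104 (NKT), and unshared members 83.5 and 58.3.

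**Figure D4:**
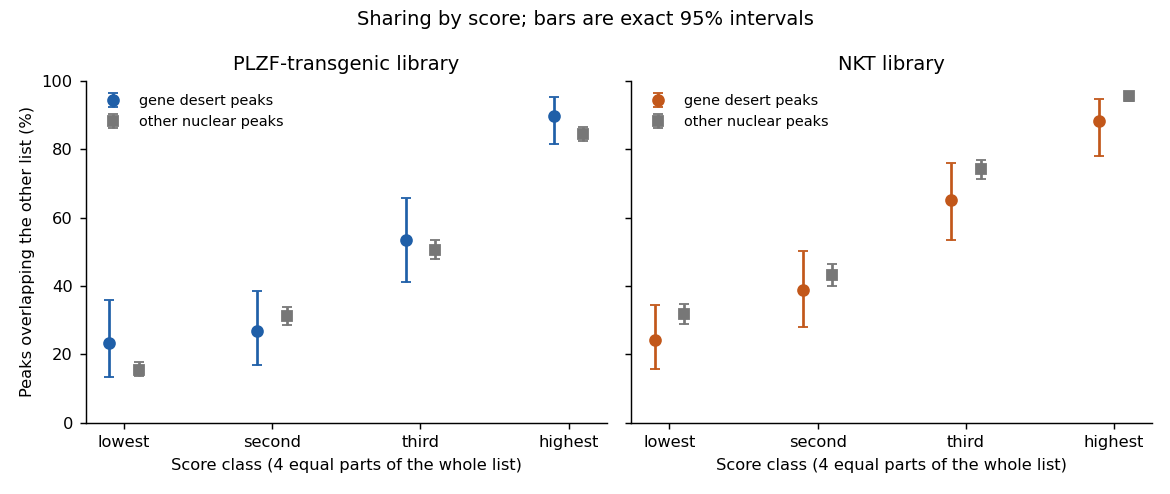
Percent of peaks that were shared between the lists, by score class (4 equal parts of the whole list), for gene desert peaks (coloured circles) and other nuclear peaks (grey squares) of each library, with exact 95% intervals. Shares climb from 23.3% to 89.8% for PLZF-transgenic and from 24.1% to 88.2% for NKT desert peaks, the latter under the grey squares in each class.

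Unshared members were surrounded differently in each list, though the difference could not be tested over samples. Of the 139 unshared PLZF-transgenic members, 80 (57.6%, 48.9 to 65.9) lay in a desert that held a shared member, and of the 149 unshared NKT members 28 did (18.8%, 12.9 to 26.0). The median distance to the nearest peak of the other list was 52.0 kb for unshared PLZF-transgenic members and 655 kb for unshared NKT members. For unshared peaks outside the deserts these medians were 41.0 and 40.2 kb. A peak of the other list was within 100 kb for 84 of the 139 PLZF-transgenic (60.4%, 51.8 to 68.6) and 29 of the 149 NKT members (13.4 to 26.7%), against 66.1% and 64.0% of other unshared peaks. In width, unshared NKT members (median 174 bp) and shared ones (287 bp) were like the other NKT peaks, whose medians were 175 and 287 bp. Unshared and shared PLZF-transgenic members had medians of 334 and 546 bp.

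T lineage factors flanked 22.3% of unshared and 26.2% of shared PLZF-transgenic members. In the NKT list they flanked 7.38% of unshared and 26.7% of shared members. By gap length, unshared NKT members numbered 36, 49 and 49 in gaps of 200 to 500, 500 to 1000 and over 1000 kb, while shared ones numbered 65, 60 and 36. Beyond 500 kb from any protein-coding gene, 3 of 24 NKT members (12.5%, 2.66 to 32.4) and 3 of 7 PLZF-transgenic members were shared. Between 100 and 200 kb, 57.1% of NKT and 52.6% of PLZF-transgenic members were. The part of depth and of input signal in the unshared NKT peaks was not tested.

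**Figure D5:**
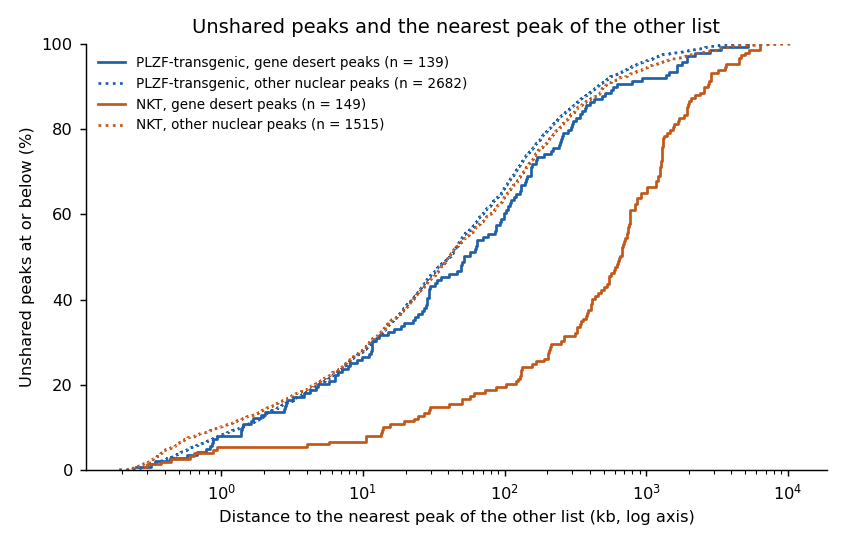
Cumulative percent of unshared peaks against distance to the nearest peak of the other list (kb, log axis), for gene desert peaks (solid lines, n = 139 and 149) and other nuclear peaks (dotted lines) of the PLZF-transgenic (blue) and NKT (orange) libraries. The solid orange line lies far to the right of the others, with a median of 655 kb against 52.0, 41.0 and 40.2 kb.

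The highest unshared PLZF-transgenic member was at chr9:116337890-116338856, inside the lncRNA gene D730003K21Rik and 163 kb from Tgfbr2, which encodes a TGF-beta receptor chain. It scored 441. The next lay beside Slc7a11, a cystine transporter gene (chr3:50675651-50676259, 265), between Stt3b and Gadl1 (258), beside Bcl6 (chr16:24153896-24154358, 257) and beside Tbc1d1 (chr5:64487720-64488287, 245). In the NKT list, and outside places presumed rich in repeats, the highest were chr17:4626212-4626639 inside the lncRNA gene Gm34259 between Nox3 and Arid1b (434) and chr14:104336949-104337102 beside Pou4f1 (282, 154 bp wide). Next were chr11:25100080-25100280, 927 kb from Bcl11a, a lymphoid zinc finger factor (203), chr17:53152468-53152590 beside Kcnh8 (152) and chr15:67289741-67290154 beside St3gal1, a sialyltransferase gene (139.6).

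Places presumed rich in repeats held 22 NKT and 2 PLZF-transgenic members. These places were the start of each chromosome up to 3.4 Mb, next to the centromere, and 4 short intervals of chromosomes 2, 3, 14 and 17 that were chosen after the peaks were seen. Only 1 of the 22 NKT members was shared, at chr17:39842908-39846789, with an NKT score of 1809. The PLZF-transgenic peak there scored 71.3 and lay in the ribosomal RNA pseudogene Rn18s-rs5. The second highest of them, chr2:98666204-98667363, scored 488 and was unshared. The stretch from the start of chromosome 9 to Alkbh8 held 8 NKT members, more than any other desert of that list, with a highest score of 79.0, and no PLZF-transgenic member. Without these places, 160 of 288 NKT members were shared (55.6%, 49.6 to 61.4), and the unshared ones had a median distance of 519.6 kb to the nearest PLZF-transgenic peak.

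LncRNA genes contained 92 PLZF-transgenic members (31.9%, 26.6 to 37.7) and 82 NKT members (26.5%, 21.6 to 31.7). The share of desert territory or of other intergenic peaks inside lncRNA genes is not given here, so these shares show no preference. They numbered 59 genes in the first list and 55 in the second, with 33 in both. Most PLZF-transgenic members per lncRNA gene were found in 2610307P16Rik beside Sox4 (8) and Gm20139 beside Tnfaip3 (5). Members in lncRNA genes were shared in 48.9% (PLZF-transgenic, 38.3 to 59.6) and 58.5% (NKT, 47.1 to 69.3) of cases. Both intervals include the shares over all nuclear peaks, 45.7% and 60.7%. Members in no gene were shared in 52.2% and 48.6% of cases. Between the lncRNA genes lay 186 and 218 members inside no annotated gene.

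Antigen receptor loci, whose gene segments are not counted as protein-coding genes in the RefSeq table, contained 7 members of each list. Tcra, the T cell receptor alpha locus, had 5 in each, and Igh, the immunoglobulin heavy chain locus, had 2 in each. PLZF-transgenic peaks in Tcra scored 56.6 to 244 and NKT peaks 53.0 to 121, with 4 and 5 of them shared. At Igh, the peak at chr12:114597626-114598149 scored 322, over an NKT peak of 60.3. The unshared Igh peaks scored 69.5 (PLZF-transgenic) and 93.1 (NKT). Rnls, which this RefSeq release lists as a transcribed pseudogene, contained a shared site on chromosome 19 with scores of 217 and 134.

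The 3 members of each list farthest from a protein-coding gene were as follows. In the PLZF-transgenic list they were chr3:111488539-111489119, 1238 kb from Prmt6 (score 185, NKT 65.8), and the pair of Igh peaks, 1063 and 1051 kb from Adam6a. In the NKT list they lay 1351, 1305 and 1254 kb from a gene and scored at most 52.0, with none shared. Near the limit of the rule, the 3 PLZF-transgenic peaks just inside it were 100.1, 100.5 and 100.6 kb from a gene and scored 105, 90.6 and 99.9. The 3 intergenic peaks just outside were 99.96, 99.3 and 98.4 kb away and scored 61.7, 56.4 and 50.8. For NKT, those inside (100.5 to 100.8 kb) scored 59.2 to 75.7 and those outside (98.98 to 99.4 kb) scored 57.3 to 60.6.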

How the data were processed

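PLZF binding was measured by streptavidin ChIP-seq in 2 libraries, 1 per group, with 2 input libraries not analysed here. Per the submitters' processing notes, Bowtie, Picard and HOMER were used with mm10, while the peak names in the deposited files are in MACS style; the sources used here give neither versions nor depth. The deposited lists give peak positions and a score whose definition is not stated. Peaks were compared with RefSeq genes (GRCm38.p6, 21631 protein-coding and 12697 lncRNA genes). The genome sequence was not used here, so sequence was read only from the RefSeq promoter windows.

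Peaks overlapping by 1 bp were called shared. A desert is the gap between neighbouring protein-coding genes, or the stretch from a chromosome start to its first such gene. Shares have exact Clopper-Pearson 95% intervals (scipy 1.17.1). No test was run. Peaks are not replicates. The members and lists were chosen with earlier results of these data known. Named were the highest-scoring, unshared, farthest and limit members, those in lncRNA genes, the fullest deserts, and flanking genes on the T cell lists; a few genes of the lists of other lineages were named after their values were seen. The steps were tested on simulated data. Places presumed rich in repeats were set after the data were seen. One of the highest-scoring members is not reported here.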

Additional observations from a re-analysis of the deposited data

How the results depend on the processing

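Member counts, shared percent, median score and width, deserts with members, the percent in lncRNA genes and counts of flanking genes were recomputed under alternatives. Of these values, 55 stayed within 1.5 times (counts) or within the interval or spread of the original, while 35 moved. With a limit of 50 kb there were 506 PLZF-transgenic and 496 NKT members, with 200 kb 117 and 140, and in the higher-scoring 50% of each list 157 and 144. The shared percent was 59.2 and 68.1 in that upper part, 31.6 and 29.0 when 50% of both peaks had to overlap, and 45.7 for NKT at 200 kb. Shared members had median scores of 215 and 104 and median widths of 546 and 287 bp. Deserts with members numbered 57 and 89 at 200 kb. Counting the nearest gene only, genes with a PLZF-transgenic and an NKT member were 0 and 11 (neuronal), 2 and 7 (developmental) and 148 and 203 (all). In the higher-scoring 50%, chosen after seeing the data, they were 1 and 3, 2 and 3, and 153 and 158. By shared members only, also chosen after seeing the data, they were 1 and 1, 2 and 2, and 146 and 144. The counts for both T cell lists stayed within 1.5 times. The wider lncRNA margin, the peak edge in place of the midpoint and members outside repeat-rich or crowded places moved none of the results they were run on past these bounds. The wider margin, 10 kb, still cut the members to 192 PLZF-transgenic, right at the bound, and 232 NKT. Counting receptor segments as genes left 281 and 303 members, without the 7 of each list in Tcra and Igh, 2 of the 3 farthest PLZF-transgenic members among them. Densities, distances to the other list and sharing by score class were not recomputed, except the distances without repeat-rich places. No replicate could be left out with 1 library per group. No paired analysis was possible because each group has 1 library. The analysis of base composition of all members was not run, since no genome was used. Depth is unknown, so an absent peak does not show absent binding.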
